A study of Mus musculus with 8 samples.

Results

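The 10 genes described here set or mark the cell lineages of the mammary gland and its response to hormones. They are the hormone receptor genes Esr1, Pgr and Prlr, the transcription factor genes Gata3, Foxa1 and Elf5, the luminal keratin genes Krt8 and Krt18, and the basal keratin genes Krt5 and Krt14. They were chosen by name. A cytosine counted as theirs when it lay in the gene body of GENCODE M21 or in the 5000 bp upstream of it and reached a coverage of 10 reads in each of the 8 libraries, and such a cytosine is called usable here. All 10 genes held usable cytosines, among 17118 protein-coding genes that did, and 302 of 567886 usable cytosines were theirs.

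Reduced representation bisulfite sequencing (RRBS), which reads methylation in fragments cut at CCGG sites, was applied to mammary tumors of the mouse cell line NIC-5231. This line comes from an ErbB2-driven tumor, and its cells were injected into the mammary fat pads of NSG mice aged 5 to 7 weeks. Once a tumor could be felt, the mice received vehicle (saline with PEG and DMSO), the ERRα inhibitor C29 at 10 mg/kg, the DNA methyltransferase inhibitor 5-azadC (decitabine) at 1 mg/kg, or C29 with 5-azadC at these doses, by intraperitoneal injection every 2 days, with 5 mice in a group. Each of the 4 treatments has 2 libraries, and each library pools tumor DNA of 2 mice. NSG mice lack functional T, B and natural killer cells but keep macrophages, fibroblasts, fat and blood vessels, so tumor DNA can hold host DNA. The comparison asks how the drugs leave the methylation of lineage genes, as a description of lineage state. Expression of the genes was not measured.

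Mammary ducts have an inner luminal layer, which makes keratins 8 and 18, and an outer basal layer, which makes keratins 5 and 14 and contracts. GATA3 and FOXA1 support the luminal cells that carry the estrogen and progesterone receptors, and ELF5 drives the milk-producing alveolar cells that prolactin calls up through its receptor. Methylation of a start site with many CpGs usually goes with a silent gene, while methylation within gene bodies is common in active genes.

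Total reads over cytosines were 70254846 and 70790628 in vehicle replicates 1 and 2, 69842185 and 73325247 with C29, 63888872 and 81299065 with 5-azadC, and 57947338 and 51359825 with both drugs. A member cytosine had a median of 35 to 58 reads in a library. Between 59.9% and 71.5% of the member cytosines stood at exactly 0% or 100% in a library, as did 61.6% to 73.0% of all usable cytosines. Reads are copies of an unknown number of DNA molecules. A read that crosses several cytosines is also counted at each of them when reads are summed. Tests on reads and limits drawn from them thus cover counting error at most, and such limits are too low where cytosines share reads.

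The usable cytosines of the members fell into 57 tiles of 1000 bp, and the reads of a tile were summed. With vehicle, the mean over these tiles was 42.3% and 39.2% methylated, with C29 38.0% and 40.8%, with 5-azadC 33.1% and 35.6%, and with both drugs 37.1% and 39.4%. The groups with and without 5-azadC overlapped in this mean. Over all 113644 tiles of the genome the means were 58.3% and 58.0% with vehicle, 58.4% and 57.0% with C29, 50.3% and 50.9% with 5-azadC, and 52.0% and 52.5% with both drugs. The members thus lay lower than the genome in every library. Tiles above 80% numbered 16 and 16 of 57 with vehicle, 15 and 15 with C29, 9 and 9 with 5-azadC, and 12 and 13 with both drugs. In 10 tiles every library was below 10%, in 15 tiles every library was above 50%, and 32 tiles lay between.

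**Figure D1:**
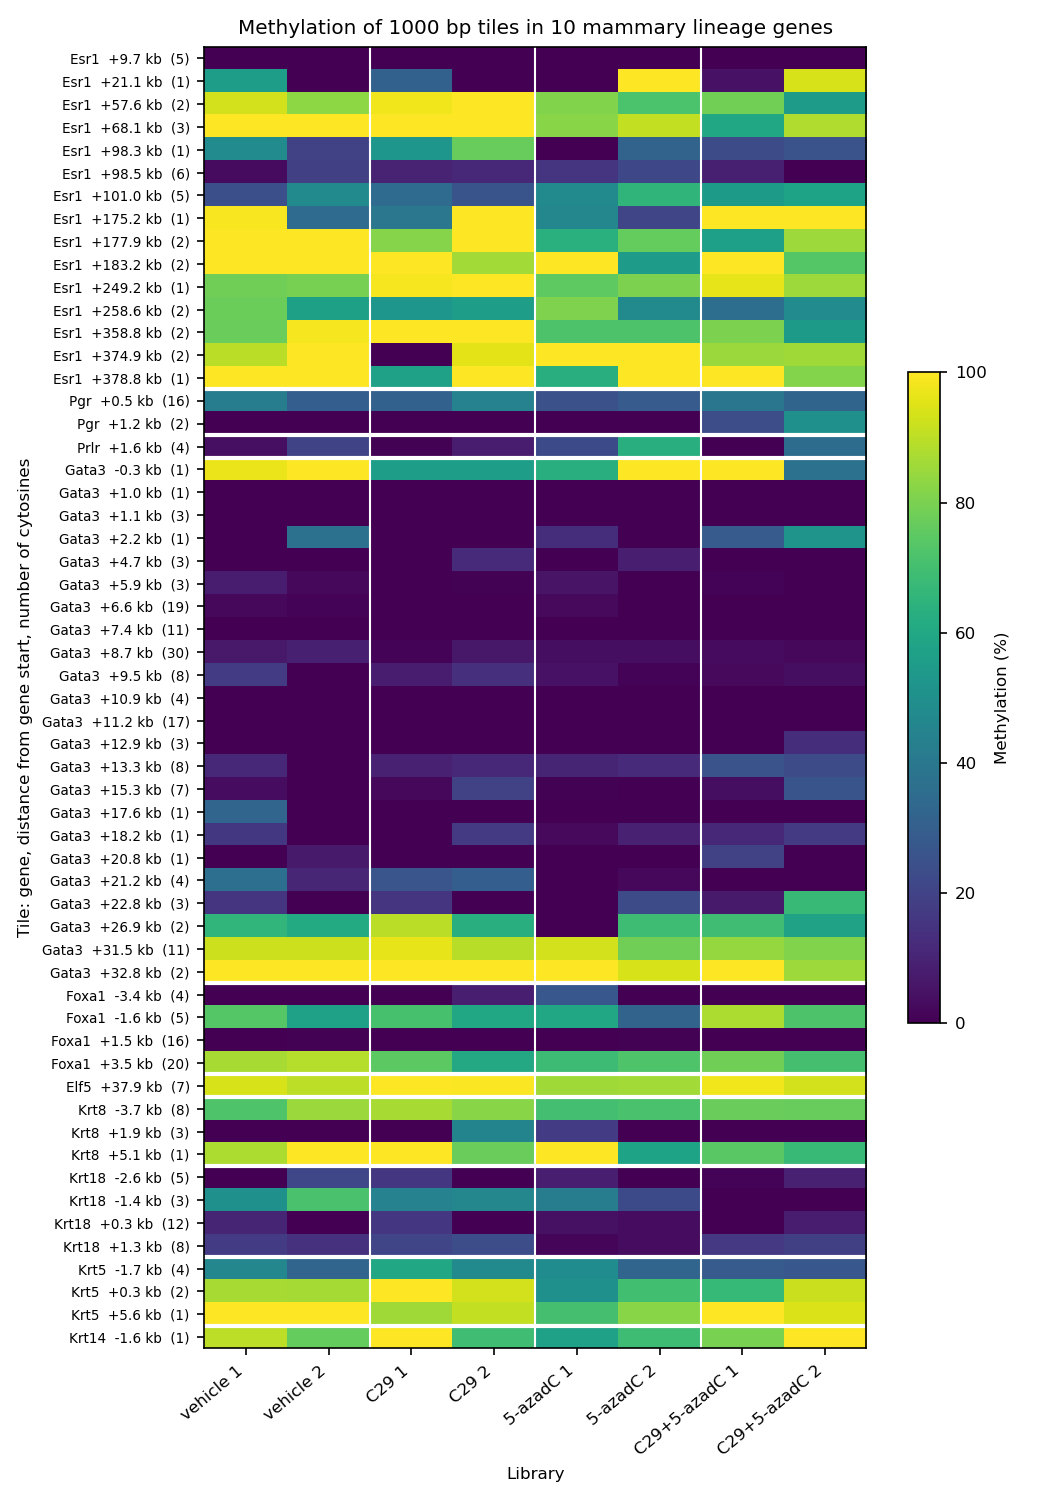
Percent methylation (color) of the 57 member tiles, each a row named by gene, distance from the gene start in kb and number of cytosines, in the 8 libraries (columns). Gata3 is mostly unmethylated, the introns of Esr1 are mostly methylated, and the rows with 1 or 2 cytosines vary most between replicates.

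A tile was called different from vehicle when a logistic test on pooled reads gave a Benjamini-Hochberg q below 0.01 over all tiles and the pooled difference was at least 25 percentage points. With C29, 1 of 57 member tiles (1.75%) was called, and it was lower; of all tiles 10.6% were called, 5.43% lower and 5.21% higher. With 5-azadC, 5 member tiles (8.77%) were called, all lower, against 15.4% of all tiles, 12.7% lower and 2.71% higher. With both drugs, 7 member tiles (12.3%) were called, 5 lower and 2 higher, against 15.1% of all tiles, 11.6% lower and 3.49% higher. In each comparison the share among the members was below that of the genome, so these counts are no result about the members as a group. The median difference from vehicle was 0 points over the member tiles and 0 over all tiles with C29, -5.18 and -4.97 points with 5-azadC, and -2.09 and -2.91 points with both drugs. The 3 comparisons share the vehicle libraries and are not independent.

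Of the 9 member tiles called in any comparison, 2 held 1 cytosine and 5 held 2. The treated pair did not overlap the vehicle pair in 1 of 1 tile called with C29, 2 of 5 with 5-azadC and 6 of 7 with the combination, where the share over all called tiles was 63.6%, 71.0% and 65.4%. The replicates of a group differed by at least 25 points in 6 member tiles of vehicle (10.5%), 7 of C29 (12.3%), 12 of 5-azadC (21.1%) and 9 of the combination (15.8%), against 18.3%, 19.7%, 23.3% and 25.8% of all tiles. The quasi-likelihood test of edgeR, which estimates the spread between libraries, called 0 of all 113644 tiles in each comparison, with 3, 4 and 5 member tiles at an unadjusted p under 0.05. The overdispersion-corrected F test, which has 2 residual degrees of freedom here, also called 0 of all tiles, so these zeros are not about the members. It gave 4, 6 and 3 member tiles at such a p. The share of all tiles at such a p was not counted for either test, so these numbers are no result about the members either.

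Libraries were then taken as the units, 4 with a drug against 4 without it. The 4 libraries with 5-azadC did not overlap the other 4 in 5 member tiles, 4 lower and 1 higher. Of all tiles 5.34% were lower and 0.308% higher in this way. For C29 there was 1 such member tile, higher, where 0.781% of all tiles were lower and 1.05% higher. Such a separation gives a tile a two-sided p of 0.0286 in the exact permutation test, the smallest value for 4 libraries against 4, and over all tiles the lowest q of a member was 0.506 for 5-azadC and 1 for C29. A comparison of 2 libraries against 2 cannot go below 0.33. These p-values measure the spread between pools of mice, not between animals.

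**Figure D2:**
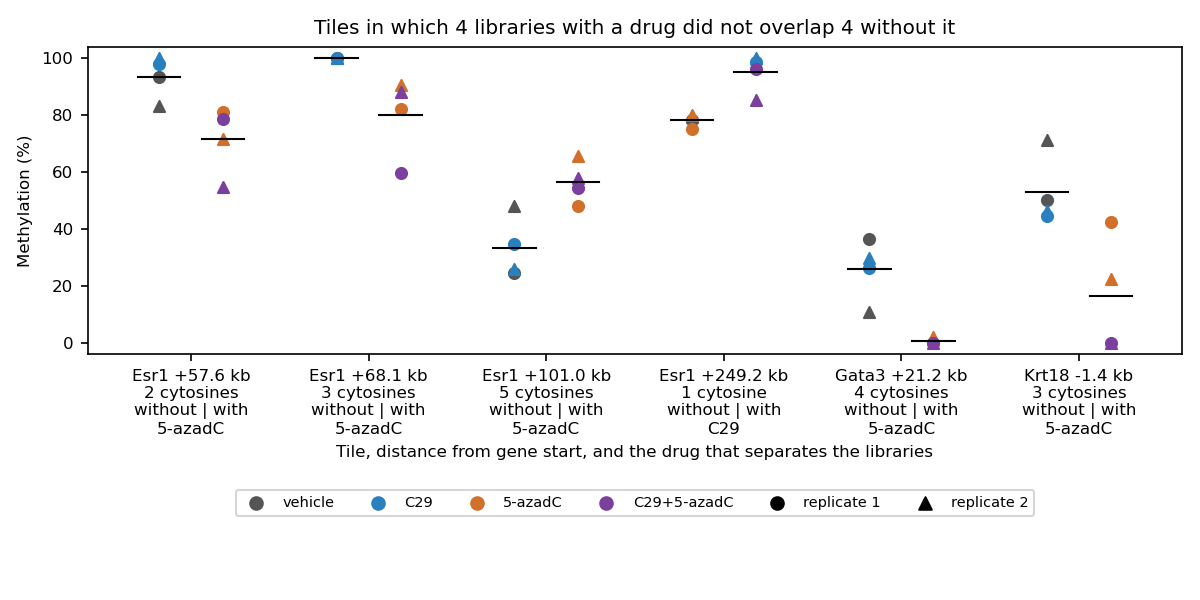
Methylation (%) of the 6 member tiles in which the 4 libraries with a drug did not overlap the 4 without it, with the libraries without the drug on the left and those with it on the right of each tile. Circles are replicate 1, triangles replicate 2, colors are treatments and short lines are means of 4; the Esr1 coding tile is the only higher tile for 5-azadC.

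Around transcription starts, each start-site region took in 1000 bp upstream to 500 bp downstream of the protein-coding starts of a gene. The members had 17 such regions, and 7 of them, in 6 genes, held a usable cytosine; over the genome 14939 of 31584 did (47.3%). Among the 7, 3 were below 20% in all libraries (the downstream start of Gata3, Foxa1 and Krt18) and 3 were at 20% or more in both vehicle libraries (Pgr, Krt5 and the upstream start of Gata3). Over the genome the median region was 0.827% methylated in vehicle, 64.6% of regions were below 5%, and 21.6% were at 20% or more in both vehicle libraries.

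Called start-site regions of the members numbered 1 with C29, where 2.58% of all regions were called. With 5-azadC there were 2, against 3.29% of all regions, and with both drugs 1, against 3.43%. All of these calls were in Krt5 and in the upstream start of Gata3, on 2 cytosines and 1 cytosine. No member region separated the 4 libraries with 5-azadC from the others, as 2.80% of all regions did, and none separated those with C29, as 1.81% did.

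**Figure D3:**
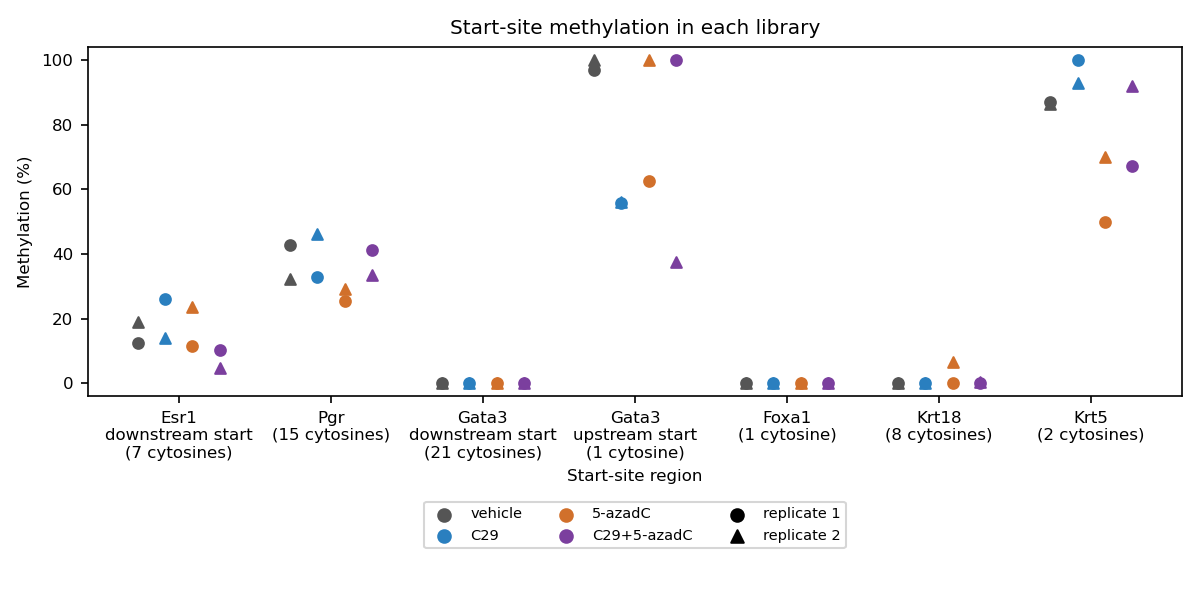
Methylation (%) of the 7 member start-site regions with a usable cytosine in each of the 8 libraries, colored by treatment, with circles for replicate 1 and triangles for replicate 2. The downstream start of Gata3, Foxa1 and Krt18 are near 0%, Esr1 and Pgr lie between, and Krt5 and the upstream start of Gata3 are high and spread widely on 1 or 2 cytosines.

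**Figure D4:**
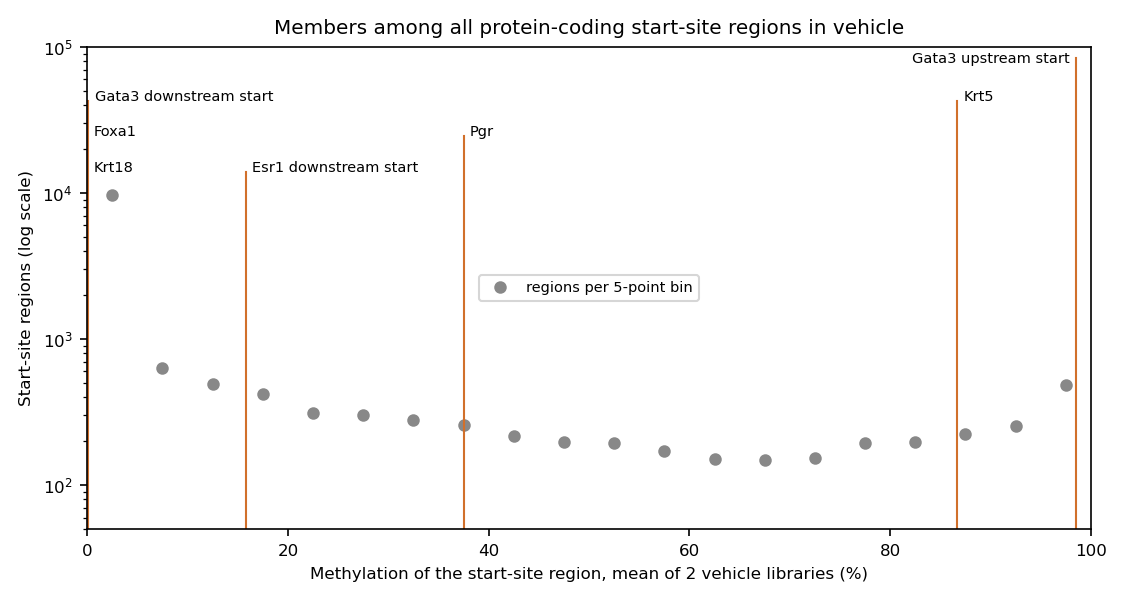
Number of protein-coding start-site regions of the genome (log axis) by their mean methylation in the 2 vehicle libraries, in bins of 5 points, with vertical lines at the 7 member regions. Most regions are in the lowest bin, with Gata3 (downstream start), Foxa1 and Krt18.

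Esr1 encodes estrogen receptor alpha, the receptor by which luminal cells sense estrogen. It spans 4611593 to 5005614 on the plus strand of chromosome 10, and its 36 usable cytosines lay in 15 tiles. Its upstream start had no usable cytosine, and in the 5 libraries with any cytosine of at least 10 reads there it was at 0%, on 2 or 3 cytosines. The downstream start held 7 usable cytosines in chr10:4709155-4710655, most of them in the 137 bases printed here. Capitals mark the CpGs with usable cytosines, and the sequence is shown because it is the start region that can be followed in all libraries (GRCm38.p6 from RefSeq, chr10:4709989-4710125, plus strand).
Esr1 downstream start: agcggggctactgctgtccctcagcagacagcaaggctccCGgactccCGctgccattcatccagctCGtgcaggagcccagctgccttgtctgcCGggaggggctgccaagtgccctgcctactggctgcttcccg

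In this Esr1 region methylation was 12.6% and 19.1% with vehicle, 26% and 14% with C29, 11.5% and 23.5% with 5-azadC, and 10.4% and 4.76% with both drugs. The vehicle, C29 and 5-azadC libraries overlapped, and both libraries of the combination were below them in these summed reads. Over the 9 to 14 cytosines that each library covered, the combination had 12.3% and 9.41%. These values lay around the 11.6% of vehicle replicate 1 and below those of the remaining libraries. At the cytosine 4709921 the lowest library was 5-azadC replicate 1, with 0%. The vehicle mean of the whole region, 15.8%, was above that of 72.7% of regions in the genome. The 4 libraries with 5-azadC averaged 12.5% ± 7.86 (SD, n = 4) and the other 4 17.9% ± 6.09, a difference of -5.39 points that did not pass the test (two-sided exact permutation p = 0.314). It ran from -9.03 (without 5-azadC replicate 2) to -2.68 points (without C29 replicate 1) when 1 library was left out, and was -3.01 with strands summed and -2.36 with unweighted means.

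Most of the other Esr1 cytosines lay in introns and were highly methylated. Summed over the 29 cytosines outside the start regions, methylation was 73.4% and 72.6% with vehicle, 67.9% and 72.7% with C29, 65.3% and 60.4% with 5-azadC, and 65.0% and 60.7% with both drugs. The 4 libraries with 5-azadC were the lowest 4. The means were 62.8% ± 2.66 with and 71.7% ± 2.54 without 5-azadC (SD, n = 4 each), a difference of -8.82 points (two-sided exact permutation p = 0.0286, the smallest possible). It was the only 1 of 34 such differences, for 5-azadC and for C29 over start regions and the rest of each gene, with a p under 0.05, and these p-values were not adjusted. With the mean of cytosines in place of summed reads it was -2.56 points (exact permutation p = 0.343), and with both strands of a CpG summed -3.47 points (exact permutation p = 0.314).

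The decrease was spread unevenly over the introns. At 4669001 to 4670000, on 2 cytosines with 223 to 765 reads, methylation was 93.3% and 83.2% with vehicle, 97.9% and 100% with C29, 81.0% and 71.8% with 5-azadC, and 78.8% and 54.8% with both drugs, so the libraries with 5-azadC were the lowest 4 (-22.0 points). At 4679001 to 4680000 all 4 libraries without 5-azadC stood at 100% on 3 cytosines. There 5-azadC libraries had 82.1% and 90.7%, and those with both drugs 59.7% and 88.2%. This tile separated the libraries by 5-azadC (-19.8 points) and was called with both drugs (-28.0 points).

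An Esr1 coding exon went the other way. The tile at 4712001 to 4713000, with 5 usable cytosines on 114 to 280 reads, had 24.6% and 47.9% with vehicle, 34.8% and 26% with C29, 47.9% and 65.5% with 5-azadC, and 54.5% and 58.0% with both drugs. The 4 libraries with 5-azadC were the highest 4 by 23.1 points on average, although the gap between vehicle replicate 2 and 5-azadC replicate 1 was small. With a minimum of 5 reads, or with strands summed, no member tile was higher in all libraries with 5-azadC. It is printed here since it was the only such tile under the reported settings, and capitals mark its 5 measured CpGs (GRCm38.p6 from RefSeq, chr10:4712603-4712654, plus strand).
Esr1 coding exon: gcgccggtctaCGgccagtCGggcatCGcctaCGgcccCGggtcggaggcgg

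The remaining called Esr1 tiles were intronic, with 1 or 2 cytosines each. At 4789001 to 4790000 methylation was 100% and 100% with vehicle, 81.9% and 100% with C29, 63.6% and 76.2% with 5-azadC, and 56.3% and 85.5% with both drugs. It fell by 31.8 points with 5-azadC and by 28.8 points with both drugs in pooled reads, and both treated pairs lay below vehicle. At 4786001 to 4787000, a lone cytosine had 99.1% and 34.8% with vehicle, 39.5% and 100% with C29, 46.2% and 20.8% with 5-azadC, and 100% in both libraries of the combination. It was called lower with 5-azadC (-32.9 points) and higher with both drugs (25.3 points), but the vehicle replicates differed by 64.2 points, more than either. At 4870001 to 4871000 the values were 77.7% and 56.9% with vehicle, 52.6% and 55.8% with C29, 80.5% and 47.5% with 5-azadC, and 36.1% and 48.2% with both drugs, which fell by 26 points. The tile that separated the C29 libraries from the others, at 4860001 to 4861000, had 98.8% and 100% with C29 and 96.4% and 85.2% with both drugs, against 78.3% and 79.3% with vehicle and 75% and 80.2% with 5-azadC. This was 16.9 points higher on 1 cytosine. The other 8 Esr1 tiles passed neither rule, and 1 of them, with 5 cytosines in the intron after the upstream start, was at 0% in every library.

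Pgr encodes the progesterone receptor, a target of estrogen receptor alpha that is found in the same luminal cells. It spans 8899833 to 8968611 on the plus strand of chromosome 9 and had 18 usable cytosines, all near its start. Its start-site region (chr9:8898833-8900968, 15 cytosines, 429 to 1158 reads) had 42.8% and 32.2% with vehicle, 32.8% and 46.3% with C29, 25.6% and 29.3% with 5-azadC, and 41.1% and 33.4% with both drugs. The 5-azadC libraries were the lowest pair, and the other groups overlapped. The vehicle mean of 37.5% exceeded that of 81.8% of regions. The libraries with 5-azadC differed from the others by -6.16 points (32.4% ± 6.64 and 38.5% ± 7.10, SD, n = 4 each, two-sided exact permutation p = 0.229), and those with C29 by 5.93 points (exact permutation p = 0.257). Leaving out 1 library moved the first to between -9.07 and -3.56 points and the second to between 3.30 and 9.36. With unweighted means the first was -2.67 points, and over 1000 bp upstream only the second was 11.4. With a minimum of 20 reads, which leaves 4 cytosines, the second was 3.83 points.

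In the next Pgr tile, 8901001 to 8902000 in the coding exon, 6 libraries stood at 0% and the libraries with both drugs at 23.6% and 50%. The combination was called higher (32.7 points). The signal came from 1 of the 2 cytosines, 8901070, at 44.4% and 100% on 36 and 19 reads. The 0% values rest on 22 to 100 reads summed over both cytosines and allow up to 3% to 13.6% (3 reads) if every counted read were separate.

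Prlr encodes the prolactin receptor, by which alveolar cells receive the signal to make milk. The gene (plus strand of chromosome 15, 10177238 to 10349180) had 5 start-site regions, none with a usable cytosine. Over the cytosines that each library covered, the start at the gene's 5′ end had 0% and 9.78% with vehicle, 0% and 7.17% with C29, 0% and 0% with 5-azadC, and 0% and 0.204% with both drugs, on 1 to 9 cytosines. It was thus low in all 8 libraries. The 4 usable cytosines of Prlr lay in an intron at 10178001 to 10179000, with 4.15% and 20.5% with vehicle, 0.654% and 7.56% with C29, 22.5% and 62.6% with 5-azadC, and 0.345% and 35.3% with both drugs. The replicates of the combination spanned the whole range of the C29 and vehicle libraries, and the difference by 5-azadC, 22.0 points, did not pass (two-sided exact permutation p = 0.20). It was 31.9 points without replicate 1 of the combination (exact permutation p = 0.0286) and 11.2 points without 5-azadC replicate 2 (exact permutation p = 0.314).

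Gata3 encodes the transcription factor that luminal cells need to form and to stay differentiated. It spans 9857078 to 9890034 on the minus strand of chromosome 2 and held 144 usable cytosines in 23 tiles, the most of any member. Of these tiles, 8 were below 10% in all libraries and 4 of these were at 0% in all, with upper limits of 0.300% to 27.3% for 3 of the summed reads. GENCODE gives it an upstream and a downstream start. The downstream start (chr2:9878100-9879600) was CpG-rich, with 72 CpGs and an observed-to-expected CpG ratio of 0.686, and its 21 usable cytosines were at 0.278% and 0% with vehicle, 0% and 0.0803% with C29 and 0% in the other 4 libraries. On 691 to 1495 summed reads, 0 methylated reads allow at most 0.434% over these usable cytosines in any of these libraries, if every counted read were separate. Over the 33 to 51 cytosines that each library covered, methylation was 0.194% and 0% with vehicle and 0.430% and 1.07% with C29. It was 1.12% and 0.508% with 5-azadC and 1.79% and 1.31% with both drugs, above that limit. Part of this start is printed as the example of a lineage start with almost no methylation, with usable CpGs in capitals (GRCm38.p6 from RefSeq, chr2:9878758-9878987, minus strand).
Gata3 downstream start: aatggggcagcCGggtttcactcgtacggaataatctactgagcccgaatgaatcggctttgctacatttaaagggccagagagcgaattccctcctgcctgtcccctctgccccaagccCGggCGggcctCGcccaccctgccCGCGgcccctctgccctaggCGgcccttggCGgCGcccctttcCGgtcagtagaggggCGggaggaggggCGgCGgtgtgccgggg

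The upstream Gata3 start held 1 usable cytosine, 312 bp upstream of it, which was the only member tile called with C29. Methylation was 97.0% and 100% with vehicle, 55.8% and 56.1% with C29, 62.7% and 100% with 5-azadC, and 100% and 37.5% with both drugs, on 11 to 77 reads. In pooled reads it fell by 43.1 points with C29, and it was also called with 5-azadC (-25.4 points) and with both drugs (-41.9 points). The C29 libraries were apart from vehicle and close to each other, while the other treated groups overlapped vehicle, and the 4 libraries with C29 overlapped the 4 without it (-27.6 points, two-sided exact permutation p = 0.143). With strands summed, which gives 5 cytosines, this was -13.8 points (exact permutation p = 0.171). Over the 16 to 24 cytosines of this region that each library covered, methylation was 19.1% and 47.4% with vehicle, 26.4% and 8.56% with C29, 21.1% and 22.6% with 5-azadC, and 8.17% and 39.7% with both drugs. The lone cytosine was above the region around it in all libraries except replicate 2 of the combination.

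Inside Gata3, methylation was highest at the 3′ end. The 11 cytosines of the coding exon at 9858001 to 9859000 had 92.3% and 92.5% with vehicle, 96.1% and 89.3% with C29, 93.1% and 78.5% with 5-azadC, and 84.1% and 80.9% with both drugs. Between this end and the start lay the coding tile 9868001 to 9869000, with 36.5% and 10.7% with vehicle, 26.2% and 29.8% with C29, 0% and 2.08% with 5-azadC, and 0% in both libraries of the combination. The libraries with 5-azadC were the lowest 4, by 25.3 points, on 4 cytosines and 48 to 262 reads. It is printed with its usable CpGs in capitals, because it was the only Gata3 tile to separate the libraries by 5-azadC (GRCm38.p6 from RefSeq, chr2:9868777-9868857, minus strand).
Gata3 coding exon: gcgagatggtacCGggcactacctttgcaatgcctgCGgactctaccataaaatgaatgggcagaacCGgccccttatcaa

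The tile called lower with 5-azadC at 9863001 to 9864000 (-25.2 points, 2 cytosines) had 65.7% and 61.1% with vehicle, 89.5% and 62.5% with C29, 0% and 68.8% with 5-azadC, and 69.5% and 57.8% with both drugs. Only 5-azadC replicate 1 was low. The other 20 Gata3 tiles passed neither rule. Outside the start regions, 122 cytosines together had 16.6% and 9.19% with vehicle and 9.19% to 16.6% over all libraries, with a difference by 5-azadC of 0.0996 points (two-sided exact permutation p = 0.971). The introns before the downstream start hold the densest stretch: 30 cytosines at 9881001 to 9882000 ranged from 0.844% to 8.91%, and 8 of the 23 tiles also lie in the protein-coding genes 4930412O13Rik or 9230102O04Rik.

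**Figure D5:**
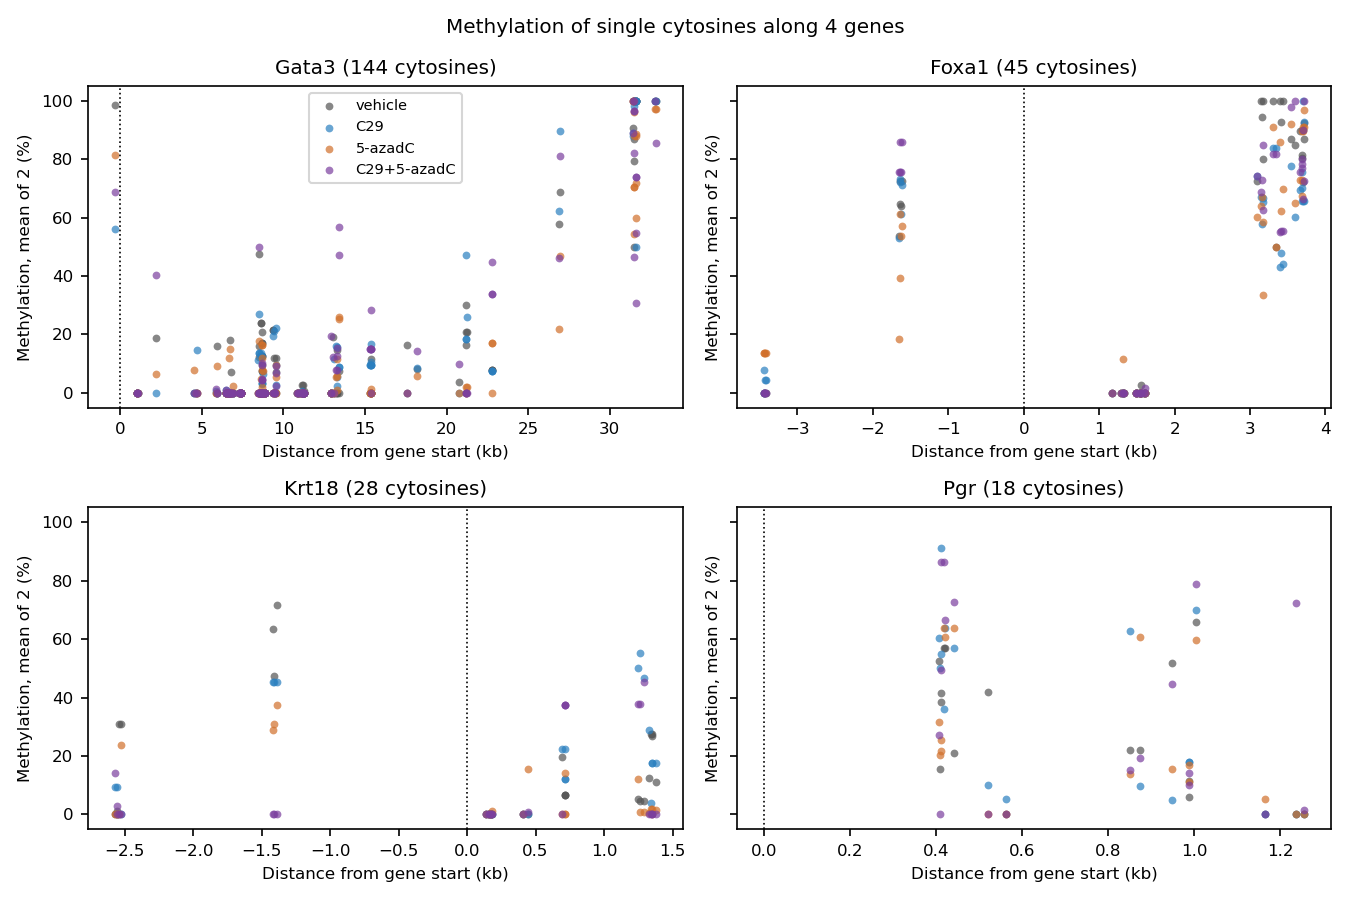
Methylation (%) of each usable cytosine, as the mean of the 2 libraries of a treatment (colors), against distance from the gene start in kb for Gata3, Foxa1, Krt18 and Pgr. Foxa1 and Krt18 are near 0% at the cytosines next after the start, Gata3 stays low for most of its length and is high at its 3′ end, and the cytosines of Pgr are spread over a wide range.

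Foxa1 encodes a pioneer factor that opens chromatin for estrogen receptor alpha. It spans 57540628 to 57546916 on the minus strand of chromosome 12. Its start-site region (chr12:57545621-57547121, 119 CpGs, observed-to-expected ratio 0.806) held 1 usable cytosine, which was at 0% in all libraries on 25 to 80 reads, allowing up to 3.75% to 12% (3 reads). Over the 62 to 90 cytosines that each library covered there, methylation was 0% and 0.759% with vehicle, 0% and 0.0417% with C29, 3.16% and 0% with 5-azadC, and 0.179% and 0.0857% with both drugs. The start was unmethylated or nearly so in each treatment, as was the adjoining tile 57545001 to 57546000, which reached 0.725% at most over its 16 cytosines together. In that tile 13 cytosines were at 0% in all libraries, and the highest value was 23.5% at 57545605 in 5-azadC replicate 2.

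Further into Foxa1 methylation was high. The tile at 57543001 to 57544000 (20 cytosines in the coding exon and the intron, 800 to 2063 reads) had 86.8% and 88.7% with vehicle, 74.7% and 60.2% with C29, 68.5% and 72.5% with 5-azadC, and 78.4% and 70.7% with both drugs. All 6 treated libraries were below both vehicle libraries, by -20.7, -16.5 and -13.5 points in pooled reads, which did not reach the 25 points of a call. Upstream, 5 cytosines at 57548001 to 57549000 had 73.8% and 57.3% with vehicle, 70.9% and 60% with C29, 60% and 31.9% with 5-azadC, and 87.6% and 72.0% with both drugs. None of the 4 Foxa1 tiles passed either rule, and outside the start the libraries with 5-azadC differed by -4.73 points (43.8% ± 8.45 and 48.5% ± 4.73, SD, n = 4 each, two-sided exact permutation p = 0.371). This was -1.31 points without 5-azadC replicate 1 and -8.20 without replicate 1 of the combination, -1.67 with a minimum of 20 reads, -2.23 with strands summed and -1.17 with unweighted means.

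Elf5 encodes the transcription factor of the alveolar lineage. Its 7 usable cytosines lay at the 3′ end of the gene (plus strand of chromosome 2, 103449001 to 103450000, 6 in coding sequence) and were highly methylated. They had 93.9% and 90% with vehicle, 100% and 99.6% with C29, 85.9% and 86.0% with 5-azadC, and 98.0% and 93.2% with both drugs. The 5-azadC libraries were the lowest pair and the C29 libraries the highest, but the difference by C29, 8.72 points, did not pass (97.7% ± 3.15 and 89.0% ± 3.80, SD, n = 4 each, two-sided exact permutation p = 0.0571). With unweighted means it was 15.1 points (exact permutation p = 0.0286), with a minimum of 20 reads 3.88 (exact permutation p = 0.343) and with strands summed 5.44 (exact permutation p = 0.40). At the start-site region chr2:103423062-103425328, over the 3 to 9 cytosines that each library covered, Elf5 had 5.42% and 28.7% with vehicle, 15.5% and 11.2% with C29, 6.42% and 17.4% with 5-azadC, and 27.4% and 8.40% with both drugs. These groups overlapped.

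Krt8 and Krt18 encode the keratin pair of luminal and other simple epithelia, and they lie side by side on chromosome 15. The start-site region of Krt18 (chr15:102027180-102028680, 8 usable cytosines, 186 to 478 reads) was at 0% in both vehicle libraries, both C29 libraries, 5-azadC replicate 1 and replicate 1 of the combination. It was at 6.59% in 5-azadC replicate 2 and at 0.326% in replicate 2 of the combination. In the 6 libraries at 0%, up to 0.628% to 1.61% was possible (3 of the summed reads) if every counted read were separate. Over the 17 to 27 cytosines that each library covered, the range was 0% to 12.9%, with 8.07% and 1.74% in vehicle. The promoter of Krt18 just upstream of the start is printed with that of Krt5 to set a luminal beside a basal keratin (GRCm38.p6 from RefSeq, chr15:102027966-102028179, plus strand, and chr15:101712906-101713155, minus strand). Capitals mark CpGs with at least 10 reads in at least 1 library, which are 6 of 8 CpGs in Krt18 and 0 of 2 in Krt5. The 8 usable cytosines of the Krt18 region lay 141 to 443 bp after the start, so none of them was in the printed promoter.
Krt18 promoter: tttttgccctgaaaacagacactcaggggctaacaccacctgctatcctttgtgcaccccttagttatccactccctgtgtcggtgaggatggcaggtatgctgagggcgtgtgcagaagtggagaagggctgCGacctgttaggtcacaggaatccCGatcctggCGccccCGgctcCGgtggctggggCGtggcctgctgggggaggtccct
Krt5 promoter: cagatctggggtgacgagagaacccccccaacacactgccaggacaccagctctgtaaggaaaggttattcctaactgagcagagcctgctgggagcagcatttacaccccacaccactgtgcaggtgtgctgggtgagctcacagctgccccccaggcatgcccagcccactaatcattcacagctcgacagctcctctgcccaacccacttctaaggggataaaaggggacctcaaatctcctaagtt

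The letters CCGG, which read the same on both strands and are the site of the enzyme MspI that RRBS commonly uses, occur in the Krt18 promoter and not in that of Krt5. All 10 members matched the RefSeq promoter table by symbol, with 14 entries. Among these, 8 held CCGG in the 250 bases before the start and 6 did not, where 47.1% of all 32851 promoters held it.

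Upstream of Krt18, 3 cytosines at 102026001 to 102027000, about 1.4 kb before the start, gave the largest difference of any member tile. Methylation was 50.3% and 71.4% with vehicle, 44.4% and 46.2% with C29, 42.5% and 22.5% with 5-azadC, and 0% in both libraries of the combination, on 33 to 219 reads. It fell by 56.9 points with both drugs in pooled reads, where 0 methylated reads allow up to 1.7% to 9.09% (3 reads) if every counted read were separate. Each of the 3 cytosines had 58 or 59 reads in replicate 1 of the combination and 11 in replicate 2. Reads shared between these cytosines make the limits higher. All libraries with 5-azadC were below all others (-36.8 points), and the 2 C29 libraries lay between vehicle and 5-azadC. The tile is printed for that reason, with its 3 CpGs in capitals (GRCm38.p6 from RefSeq, chr15:102026751-102026801, plus strand).
Krt18 upstream: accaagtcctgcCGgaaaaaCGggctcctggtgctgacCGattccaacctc

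The gene body of Krt18 (plus strand, 102028180 to 102032027) was low. Its tile at 102029001 to 102030000, with 8 cytosines in coding exons and introns, had 17.7% and 14.3% with vehicle, 21% and 23.7% with C29, 1.64% and 3.33% with 5-azadC, and 16.5% and 19.1% with both drugs. The 5-azadC libraries stood apart at the low end (-13.9 points from vehicle in pooled reads), and the combination overlapped vehicle. Over the 20 cytosines outside the start region, Krt18 had 20.2% and 15.4% with vehicle, 26.9% and 19.1% with C29, 11.0% and 3.88% with 5-azadC, and 4.46% and 18.5% with both drugs. The libraries with 5-azadC averaged 9.45% ± 6.82 and the others 20.4% ± 4.79 (SD, n = 4 each), a difference of -10.9 points that missed the threshold (two-sided exact permutation p = 0.0571), with replicate 2 of the combination above vehicle replicate 2. Without that replicate of the combination it was -13.9 points and with unweighted means -11.5 points (exact permutation p = 0.0286 each), and with a minimum of 20 reads, which leaves 3 cytosines, -5.41 points (exact permutation p = 0.771).

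Krt8 lies on the minus strand at 101996698 to 102004482, and its start-site region had no usable cytosine. In 6 of the 7 libraries with 1 or 2 covered cytosines there it was at 0%. Its upstream tile at 102008001 to 102009000 had 8 cytosines with 72.3% and 85.1% with vehicle, 87.0% and 82.4% with C29, 70.3% and 71.2% with 5-azadC, and 77.2% and 76.9% with both drugs. None of its 3 tiles was called. Outside the start, the 12 Krt8 cytosines had 58.6% ± 9.91 with and 69.5% ± 5.15 without 5-azadC (SD, n = 4 each, -10.9 points, two-sided exact permutation p = 0.0857). This was -6.07 points without replicate 2 of the combination and -3.33 points with a minimum of 5 reads.

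Krt5 and Krt14 encode the keratin pair of basal and other stratified epithelia. The start-site region of Krt5 (chr15:101712398-101713898, minus strand) held 2 usable cytosines, both in the coding part of the exon after the start. Methylation was 86.9% and 86.5% with vehicle, 100% and 93% with C29, 50% and 69.9% with 5-azadC, and 67.1% and 91.9% with both drugs, on 74 to 152 reads. Vehicle and C29 libraries were high, the 5-azadC libraries were both below them, and the combination overlapped vehicle and 5-azadC. It fell by 26.6 points with 5-azadC in pooled reads and was called. The 4 libraries with 5-azadC averaged 69.7% ± 17.2 and the others 91.6% ± 6.35 (SD, n = 4 each), and the difference of -21.9 points did not pass the test over libraries (two-sided exact permutation p = 0.0857). Of the 2 cytosines, the 1 at 101712633 was at 100% in all libraries without 5-azadC. It had 29.7% and 82.4% with 5-azadC and 76.7% and 83.3% with both drugs. The other, at 101712525, varied widely, with 56.7% and 0% with vehicle, 100% and 79.1% with C29, 100% and 36% with 5-azadC, and 53.2% and 100% with both drugs. The unweighted mean of both cytosines differed by -9.31 points (exact permutation p = 0.514). Without replicate 2 of the combination the difference in summed reads was -29.2 points, and with a minimum of 20 reads, which leaves 1 cytosine, -32.0 points (exact permutation p = 0.0286 each). The vehicle mean of the region, 86.7%, exceeded that of 94.1% of regions in the genome, and its sequence was CpG-poor, with an observed-to-expected ratio of 0.269.

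Upstream of Krt5, 4 cytosines at 101714001 to 101715000 had 46.2% and 32.7% with vehicle, 59.6% and 47.4% with C29, 48.8% and 32.8% with 5-azadC, and 28.8% and 27.0% with both drugs. The C29 pair was the highest on average and the combination the lowest. Krt14 (minus strand of chromosome 11, 100203162 to 100207548) had 1 usable cytosine, in 100209001 to 100210000 upstream of the gene, with 90% and 76.3% with vehicle, 100% and 69.5% with C29, 57.1% and 69.0% with 5-azadC, and 80% and 100% with both drugs. The 5-azadC libraries were the lowest pair, just under C29 replicate 2, and the other groups overlapped. Its start-site region was covered in replicate 1 of the combination only, at 0% on 4 cytosines, so the Krt14 start cannot be compared across treatments.

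Start sites of further mammary genes were read in the same way. Of 27 luminal and alveolar genes 18 had a usable start-site region, and 2 of these were at 20% or more in both vehicle libraries. Among them, Cited1, a coactivator in hormone-sensing cells, had 31.0% and 42.1% with vehicle and 37.4% to 51.0% in the treated libraries. Of 20 basal genes 16 had a usable region, and 4 were at 20% or more in both vehicle libraries. Among these, the smooth muscle genes Tagln (80.8% and 69.1%) and Myh11 (28.9% and 52.7%) had these vehicle values, as did the integrin gene Itga6 (28.7% and 41.4%) and the transcription factor gene Sox10 (49.5% and 48.2%). Median vehicle methylation was 8.34% over the luminal and alveolar regions and 6.54% over the basal regions.

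No start-site region of either list was called with any treatment. The libraries with 5-azadC did not overlap the others at 1 of 18 luminal and alveolar regions, that of Ehf, and at 3 of 17 basal regions, those of Sox10, Vim and Bcl11a, where 2.80% of all regions were apart in this way. All 4 were lower. Ehf, an epithelial transcription factor gene, had 14.1% and 13.6% with vehicle, 27.9% and 15.5% with C29, 6.37% and 3.83% with 5-azadC, and 2.51% and 7.51% with both drugs on 3 cytosines. Sox10 had 51.1% and 37.3% with C29, 32.4% and 36.7% with 5-azadC, and 27.9% and 31.5% with both drugs, so its nearest libraries, at 37.3% and 36.7%, were close. Vim and Bcl11a were low in all libraries. Vim had 3.15% to 7.05% without 5-azadC and at most 0.281% with it (-4.52 points). The Bcl11a region apart had 3.85% to 6.02% without and 1.63% to 2.93% with 5-azadC (-2.13 points), and the other Bcl11a region overlapped. Both lists held low and high starts.

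Markers of other cells that a tumor in an NSG host can hold were sparsely covered. A usable start-site region was found for 1 of 7 leukocyte genes, 1 of 4 endothelial genes, 2 of 5 fibroblast genes and 2 of 4 adipocyte genes. Of the adipocyte genes, Fabp4 had 62.2% and 89.2% with vehicle, 75.8% and 72.3% with C29, 64.7% and 61.1% with 5-azadC, and 62.4% and 100% with both drugs on 2 cytosines. Plin1 was at 0% on 1 cytosine in all libraries except 5-azadC replicate 1, where it had 38.2%. The fibroblast collagen gene Col1a2 had 28.4% and 21% with vehicle, 19.4% and 11.2% with C29, 23.3% and 34.7% with 5-azadC, and 57.6% and 56.8% with both drugs, and it was called higher with the combination on 4 cytosines. Pdgfra, also of fibroblasts, was at 0.756% or less in all libraries. Kdr of endothelial cells ranged from 1.05% to 24.8%. The part of these cells in the results was not tested. In bulk tumor DNA, a change in the share of cells of a type and a change of methylation within cells cannot be told apart.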

How the data were processed

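Tumor DNA of 8 libraries was measured by RRBS. Per the submitters' notes, reads were handled with FastQC 0.11.8, Trim Galore 0.4.1, Bismark 0.20.0 and methylKit 1.7.0 on mm10/GRCm38. The authors deposited, per CpG cytosine and strand, the methylated fraction from 0 to 1, without normalization. The deposited read count is the coverage of that cytosine. Their product, rounded, gave methylated reads. On the 6 chromosomes of the members, every position was checked to be a CpG in the genome. Methylated spike-in DNA read 97.5% to 98.3% methylated, and unmethylated spike-in 0.216% to 0.329%.

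Cytosines of chromosomes 1 to 19, X and Y with at least 10 reads in all 8 libraries were kept, 567886 of 3643652. A tile of 1000 bp was a member tile where it held such a cytosine of a member. A logistic likelihood-ratio test like that of methylKit was written with pandas 2.3.3, SciPy 1.17.1 and NumPy 2.4.6 under Python 3.11.15. It was run on all tiles with Benjamini-Hochberg adjustment over all of them. The package statsmodels 0.14.6 served only to check the replicate-block test on simulated tiles. Differences of libraries were tested by two-sided exact permutation over 70 assignments. edgeR 4.0.16 in R 4.3.3 fitted all libraries together. The tests were first tested on simulated counts without spread between replicates, so false calls that arise from such spread were not covered. Plots used matplotlib 3.10.9.

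All 10 members are named. Values per library are given for start-site regions with usable cytosines and for tiles called or not overlapping, and for some further tiles chosen after their values were seen. From the lists of further mammary genes, those at 20% or more in both vehicle libraries, called, or (chosen after values were seen) not overlapping could be named, and not every gene that this gives is named. The members and lists were chosen with earlier results of these data known. Alternatives covered the coverage minimum, very deep cytosines, strands, tile length, cytosines per tile, the test, the minimum difference, a replicate block, the extent of start-site regions, weighting and leaving out each library. Methylation over the cytosines of each library alone was added after seeing the data. Raw reads and expression were not used.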

Additional observations from a re-analysis of the deposited data

Results flagged for a closer look

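At a cytosine in the 3′ untranslated exon of Krt5 (tile 101707001 to 101708000, 10 to 71 reads), methylation was 100% and 100% with vehicle, 85.9% and 90.9% with C29, 70.6% and 82.4% with 5-azadC, and 100% and 94.7% with both drugs. 5-azadC differed by -23.5 points from vehicle and, in the presence of C29, by 8.96 points, with every library on its own side, a difference of -32.5 points between the effects that was not tested. In the same tile C29 differed by -11.6 points without and by 20.9 points with 5-azadC, the same -32.5 points, which was not tested either.

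In the upstream Krt5 tile at 101714001, C29 differed by 14.1 points without 5-azadC and by -12.9 points with it, and each pair lay on opposite sides of its control pair. The difference between these effects, 27.0 points, was not tested.

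Cytosines that are not usable in all libraries gave further signals. At the Krt8 start, 5-azadC replicate 1 was 64.9% methylated on 2 cytosines, where both vehicle libraries were at 0%. At the Prlr start-site region from 10248560, C29 replicate 2 had 29.5% on 2 cytosines and replicate 1 of the combination 100% on 1 cytosine, where vehicle replicate 2 on 1 cytosine and replicate 2 of the combination on 2 cytosines were at 0% and the other libraries were not covered. These differences were not tested.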

How the results depend on the processing

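The 34 differences of start regions and gene remainders had 446 alternative values. Of these, 398 kept their side of the threshold with no reversal of sign. The 398 include the Foxa1 start, where the reported differences were 0 and have no direction. There the 5-azadC difference was -0.0869 with a minimum of 5 reads and 0.966 with strands summed. Of the other values, 10 passed the exact test that had not, 6 no longer passed, and 32 changed sign. None of these 32 was past the threshold before or after. Of 74 alternative counts of tiles, 33 were within 1.5 times the reported count. The cause was not tested in any case.

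Called tiles with C29 numbered 2 with a minimum of 5 reads, 5 with strands summed and 2 in tiles of 500 bp. With 5-azadC there were 2 with a minimum of 20 reads and 8 in tiles of 500 bp, and with both drugs 4 with a minimum of 20 reads. With a minimum difference of 10 points they were 14 (C29), 22 (5-azadC) and 23 (both drugs), where 31.5%, 42.8% and 40% of all tiles were called. Among the 33 tiles with at least 3 cytosines they were 0, 0 and 2. Of all such tiles 3.41%, 6.32% and 6.11% were called. At an unadjusted p under 0.05 by the logistic test there were 18, 22 and 20 of these member tiles. The share of all such tiles at that p was not counted, so these numbers are no result about the members. Over the other settings named here 10.2% to 11.1% of all tiles were called with C29, 12.6% to 15.5% with 5-azadC and 12% with both drugs. The F test gave 0, 0 and 0, with 4, 6 and 3 at an unadjusted p under 0.05, and edgeR 0, 0 and 0, with 3, 4 and 5, and both called 0 of all tiles. For these tests too, the share of all tiles at that p was not counted.

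Tiles not overlapping by C29 numbered 3 with a minimum of 20 reads, 4 with strands summed, 4 in tiles of 500 bp, 3 with unweighted means and 0 with at least 3 cytosines, where 1.77% to 1.88% of all tiles were apart. The replicate block, which pairs libraries by replicate number, left 1 (C29), 5 (5-azadC) and 7 (both drugs) called tiles and gave 6 tiles apart by 5-azadC and 3 by C29, where 10.4%, 15.2% and 14.9% of all tiles were called and 8.46% and 3.33% apart. Over 113644 tiles the replicate differences of 2 groups correlated at -0.006 to 0.012, which gave no sign of pairing by number. The labels do not say whether libraries of the same number were processed together.

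Leaving out 1 library gave 4 to 6 called tiles with C29, 7 to 11 with 5-azadC and 7 to 11 with both drugs, and 5 to 9 tiles apart by 5-azadC and 1 to 8 by C29. Of all tiles, 14.3% to 16.2%, 18.9% to 21.9% and 18.9% to 20.9% were then called, and 8.25% to 9.70% (5-azadC) and 3.67% to 4% (C29) were apart, against 5.64% and 1.83% with all libraries. Called counts moved past 1.5 times without vehicle replicate 1 (5 with C29, 8 with 5-azadC), vehicle replicate 2 (4, 11, and 11 with both drugs), C29 replicates 1 and 2 (6 and 5), 5-azadC replicate 2 (11) and replicate 1 of the combination (11), where a logistic comparison rests on 1 library on that side. Tiles apart by C29 numbered 8 and 2 without vehicle replicates 1 and 2, 3 and 3 without C29 replicates 1 and 2, 4 without 5-azadC replicate 2, 4 without replicate 1 of the combination and 2 without its replicate 2. Tiles apart by 5-azadC numbered 9 without 5-azadC replicate 1.

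The Esr1 difference of -8.82 points became -5.66 with a minimum of 5 reads (exact permutation p = 0.20), -5.51 without the deepest 0.1% of cytosines (exact permutation p = 0.171), and -7.99 and -8.11 without replicate 2 of 5-azadC or of the combination (exact permutation p = 0.0571 each), where the libraries still did not overlap. The exact test was newly passed, at p = 0.0286 each, for 5-azadC at the Krt5 start (-32.0 with a minimum of 20 reads, -29.2 without replicate 2 of the combination) and outside the starts of Elf5 (-8.21 with a minimum of 20 reads), Pgr (18.6 without 5-azadC replicate 1), Prlr (31.9 without replicate 1 of the combination) and Krt18 (-13.9 without replicate 2 of the combination, -11.5 unweighted). For C29 it was passed outside the starts of Krt18 (40.7 with a minimum of 20 reads), Krt14 (21.5 with strands summed) and Elf5 (15.1 unweighted).

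Signs changed for C29 outside the starts of Pgr (-5.77 with a minimum of 5 reads, -3.07 with strands summed), Krt8 (9.68 with a minimum of 20 reads, 3.60 unweighted) and Foxa1 (-0.0990 with strands summed, -2.09 unweighted). They changed at the downstream Gata3 start with strands summed (0.324 for 5-azadC, 0.797 for C29), and for 5-azadC outside the starts of Gata3 (-0.133 with strands summed, -2.55 unweighted) and Elf5 (0.580 unweighted). Leaving out 1 library gave, for C29 outside the starts, -3.86 to 0.612 for Esr1, -0.225 to 5.93 for Foxa1, -0.657 to 1.91 for Gata3, -5.11 to 5.65 for Krt5 and -8.86 to 0.860 for Krt8. At starts it gave for C29 -6.94 to 0.148 for Esr1, -0.0724 to 0.0201 for the downstream Gata3 start and -2.11 to 0.0814 for Krt18. For 5-azadC it gave -0.996 to 1.57 outside the Gata3 starts and -10.5 to 10.3 at its upstream start.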
